A study of Mus musculus with 12 samples.

Results

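The interstitial collagens of the corneal endothelium were followed here as 10 genes: Col1a1, Col1a2, Col3a1, Col5a1, Col5a2, Col6a1, Col6a2, Col6a3, Col11a1 and Col12a1. They were chosen by name from the 32761 genes of the count table, by a rule that uses no measured value, although the list was drawn up with earlier results of these data known, and all 10 were among the 17965 genes with enough reads to be tested. The libraries were made from corneal endothelium of mice homozygous for the Q455K substitution in Col8a2, the gene of a chain of the network-forming type VIII collagen of Descemet's membrane, and of wild-type mice. Mutant and wild-type mice were sampled at an early stage, no older than 2 months, and at a late stage, at least 8 months old, with 3 biological replicates in each of the 4 groups and 12 libraries in all. The allele is studied as a model of Fuchs endothelial corneal dystrophy, and it is carried in the germ line, so the cells around the endothelium carry it too. The early libraries form 1 labelled batch and the late libraries another, so that stage and batch cannot be told apart, while mutant and wild type share a batch at each stage.

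The interstitial collagens are secreted as procollagens, 3 chains wound into a triple helix. Types I and III form the striated fibrils of connective tissue, and types V and XI are built into those fibrils in small amounts, where they start fibril assembly and limit fibril width. Type VI forms beaded microfilaments close to cells, and type XII binds along the surface of type I fibrils. In the cornea they are the collagens of the stroma and of scars, made mostly by keratocytes, whereas the endothelium rests on a sheet rich in type IV and type VIII collagen.

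Some of these messages carry a known regulatory element around the start codon, a short stem-loop in the mRNAs of fibrillar collagens that the RNA-binding protein LARP6 recognises. The 30 bases around the start codon, beginning 22 bases before it, are shown for both type I chains, for Col3a1 and for both type V chains, because the proportion of the 2 type I chains differed between genotypes in the measurements that follow, and because only 1 of the 2 type V chains carries the element. Capitals mark the 2 arms that can pair, CATGTCT and AGACATG, the second of which holds the start codon. In Col5a1 they mark the start codon alone. The sequences are from mouse GENCODE M21 transcripts on GRCm38, not the submitters' build.
Col1a1: tctaCATGTCTagggtctAGACATGttcag
Col1a2: tctgCATGTCTaagtggtAGACATGctcag
Col3a1: gtctCATGTCTgatatttAGACATGatgag
Col5a2: cccaCATGTCTcatatttAGACATGatggc
Col5a1: ccggcccgcgcaccccgccggcATGgacgt

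Of 20516 genes with such a window, 4 held both arms (0.0195%), and all 4 are interstitial collagens: Col1a1, Col1a2, Col3a1 and Col5a2. Col1a2 matched Col1a1 at 24 of the 30 positions, Col3a1 and Col5a2 each at 19, and Col5a1 at 10. The arms were searched as exact letters on the transcript strand, so other pairings were not looked for. No position in the window was measured in these libraries.

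Levels were first compared between genes as FPKM, fragments scaled by gene length and by the size of the library, averaged over the 12 libraries. The type I chain Col1a2 led with 72.0 FPKM and a range of 42.2 to 119, followed by the fibril-surface collagen Col12a1 with 68.2 FPKM and a range of 40.4 to 95.6. A gap followed, since the highest library of the next gene, the microfilament chain Col6a3, was at 21.7 FPKM and its mean was 12.6. Col1a1, the partner of Col1a2 in the type I helix, had a mean of only 12.3 FPKM.

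Below these were Col5a1 at 4.72, Col6a1 at 4.47, Col6a2 at 2.89, Col3a1 at 2.14, Col5a2 at 1.28 and Col11a1 at 0.423 FPKM. Between all neighbours in this order other than Col12a1 and Col6a3 the ranges over libraries overlapped. Among the 17965 tested genes, ranked by mean FPKM, Col1a2 was number 1058 and Col11a1 number 12369. The 10 genes together took 0.117% to 0.230% of the counts of a library.

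**Figure D1:**
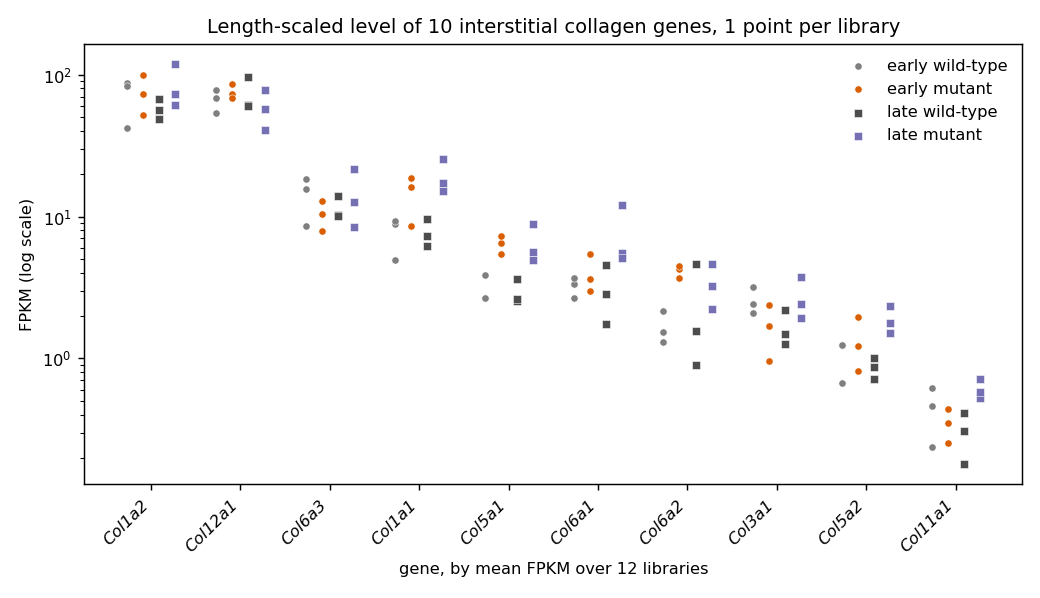
Length-scaled level of the 10 collagen genes, with FPKM on a log axis against gene, 1 point per library, circles for early and squares for late libraries. Col1a2 and Col12a1 are at 40.4 FPKM or more in all 12 libraries, and the other 8 genes are at 25.6 FPKM or less.

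Total counts ran from 19722598 to 39431676 per library, so that 3 counts, the limit that a count of 0 allows, correspond to 0.0761 to 0.152 CPM, counts scaled to the size of the library. The lowest count of any of the 10 genes was 42, for Col11a1. Endothelial markers were high, with 11 genes led by Slc4a11, Aqp1 and Col8a1 summing to 2452 to 3926 FPKM in the early libraries and 3120 to 3611 in the late mutants. The late wild types were unlike each other. Replicate 1, at 4189 FPKM, was the highest of all libraries, and replicates 2 and 3, at 1565 and 1484, were the lowest. Without late wild-type replicate 1, 20.3% of all tested genes were called late in place of 5.47%, while Col5a1 kept its late call (1.18, adjusted p = 0.011, edgeR). Without late wild-type replicate 2 or 3 the share was 1.60% or 1.89%, and Col5a1 lost its late call (adjusted p of 0.10 in both, edgeR). Other cells of the region were present too: Kera, Lum, Dpt and Cd34, 4 of 8 keratocyte markers, were higher in mutants at both stages, while Ptgds was lower in late mutants, at 73.95 to 226 FPKM against 253 to 361. Of 8 macrophage markers 3 were higher early and 5 late, where 0.557% and 497 of 17965 tested genes were (4.04% in the average). The macrophage sum was 162 to 348 FPKM in early mutants against 17.2 to 36.7 in wild type, and 254 to 316 against 28.5 to 34.7 late. Most of it was Lyz2, at 150 to 302 against 12.2 to 33.6 FPKM early and 223 to 273 against 24.9 to 30.5 late. Adgre1, Csf1r, Ptprc, Mrc1 and Cx3cr1 overlapped between genotypes early. Late, all 8 had all mutants above all wild types, where 14.9% of all tested genes did. Of 4 trabecular meshwork markers 2 were called higher early, 3 late and 4 in the average. Their sum was 442 to 867 against 122 to 238 FPKM early, and 780 to 830 against 118 to 187 late. For 6 photoreceptor markers, 3 of them called higher early and 5 in the average, it was 27.7 to 70.2 against 4.66 to 8.92 FPKM early and 12.1 to 72.6 against 8.3 to 20.2 late. For 6 melanocyte markers, 1 of them called in the average, it was 46.0 to 122 against 16.9 to 24.9 FPKM early and 39.5 to 67.8 against 5.8 to 67.2 late. The part of these cells in the collagen values was not tested. In bulk RNA, fewer cells of a type and less RNA per cell cannot be told apart.

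The first comparison asked which collagens differed between mutant and wild type at each stage. Col5a1, the type V chain that starts fibril assembly, was higher in mutants at both stages. In the fit of all 12 libraries it was, at each stage, the only one of the 10 past an adjusted p of 0.05. Averaged over both stages, Col5a1 and Col1a1 passed. The other 8 did not, including Col1a2, the most abundant per length. Of all tested genes, 0.59% were called early, 5.47% late and 6.85% in the average of both stages, most of the early calls being higher (0.557%). Levels between groups are given in CPM scaled by the trimmed mean of M-values.

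Col5a1 stood at 59.9, 62.8 and 50.3 CPM in the early mutants, and at 27.1, 19.6 and 29.4 CPM in the early wild types. In the late mutants it was at 43.3, 62.3 and 46.2 CPM, and in the late wild types at 28.2, 24.8 and 24.1 CPM. The lowest mutant library at either stage lay above the highest wild-type library, and the wild-type values of the 2 stages overlapped. The log2 fold change was 1.18 ± 0.26 (SE, n = 3 per group, adjusted p = 0.037, edgeR quasi-likelihood test) early and 0.98 ± 0.26 (adjusted p = 0.034, edgeR) late. Averaged over both stages it was 1.08 ± 0.18, a 2.11-fold difference (adjusted p = 0.0012, edgeR), shown by all 6 mutant libraries. Of the 10 genes, 1 had all mutant libraries above all wild-type libraries at both stages, against 3.89% of all tested genes.

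The averaged call of Col5a1 held under all 22 alternatives, with log2 fold changes of 0.92 to 1.22 and adjusted p values up to 0.0059 (edgeR, DESeq2 and limma). The calls at single stages were lost in 11 of 23 alternatives early, where the value ranged from 1.04 to 1.43, and in 10 of 23 late, where it ranged from 0.75 to 1.18. Leaving out any 1 of the 6 early libraries, or late mutant replicate 3, ended the early call (adjusted p of 0.0659 to 0.21, edgeR). The late call ended without any of the 3 late mutants, late wild-type replicates 2 or 3, or early mutant replicates 1 or 3 (adjusted p of 0.053 to 0.10, edgeR). With an offset for GC content, Col5a1 had adjusted p values of 0.076 early and 0.082 late (edgeR). With the libraries of each stage fitted alone, it had 0.051 early and 0.088 late (edgeR), so neither call held. The annotated lncRNA Gm13372 overlaps Col5a1 in position. The kit keeps strand, and whether the counting used it is not given in any source here.

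Its partner chain Col5a2 had 13.96, 8.11 and 5.81 CPM in early mutants against 5.28, 7.08 and 7.40 in early wild types. At the late stage it had 10.3, 12.9 and 11.3 CPM in mutants against 5.28, 7.74 and 5.13 in wild types. The early groups overlapped and the late groups did not. The averaged log2 fold change was 0.71, with an adjusted p of 0.082 (edgeR), and neither stage passed. Without late wild-type replicate 1 the averaged value was 0.75 (adjusted p = 0.047, edgeR).

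Col11a1, the related minor fibrillar chain known from cartilage, was the scarcest, between 1.69 and 4.79 CPM in all libraries. Its late mutants, at 4.40, 4.79 and 4.53 CPM, lay above the late wild types at 3.05, 1.69 and 2.68, with a log2 fold change of 0.89 (adjusted p = 0.17, edgeR). Its early groups overlapped.

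Col1a1, which supplies the larger share of the type I helix, had 120, 97.1 and 54.9 CPM in early mutants against 62.9, 25.2 and 49.6 in early wild types. In the late groups it had 92.1, 126 and 99.1 CPM in mutants against 33.5, 65.4 and 46.8 in wild types. The late groups were apart, while the lowest early mutant fell inside the early wild-type range. The log2 fold change was 0.98 ± 0.35 early (adjusted p = 0.40, edgeR) and 1.12 ± 0.35 late (adjusted p = 0.063, edgeR). Averaged over both stages it was 1.05 ± 0.25, or 2.07-fold (adjusted p = 0.015, edgeR). The late difference passed in 6 of 23 alternatives, among them DESeq2 (adjusted p = 0.032) and leaving out early wild-type replicate 1 (adjusted p = 0.045, edgeR) or 2 (adjusted p = 0.027, edgeR). The averaged call was lost with the GC offset (0.84, adjusted p = 0.072, edgeR) and without early mutant replicate 1 (0.93, adjusted p = 0.055, edgeR).

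Col1a2 had 412, 526 and 292 CPM in early mutants against 541, 191 and 389 in early wild types, and 330, 513 and 369 CPM in late mutants against 323, 339 and 275 in late wild types. The groups overlapped at both stages, and early wild-type replicate 2 was the lowest of all 12. The averaged log2 fold change was 0.25 (adjusted p = 0.53, edgeR).

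Col3a1, the chain of type III collagen, which accompanies type I in pliable tissue and early scars, had 14.1, 9.51 and 5.78 CPM in early mutants against 21.2, 10.2 and 12.1 in early wild types. Late mutants had 10.97, 17.2 and 12.9 CPM and late wild types 6.39, 14.0 and 8.86. The groups overlapped at both stages, with a log2 fold change of -0.56 early (adjusted p = 0.63, edgeR) and 0.49 late.

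The type VI chains form 1 molecule with 1 chain of each kind in the textbook assembly. Col6a2 had 27.7, 27.3 and 23.8 CPM in early mutants against 11.04, 6.81 and 11.7 in early wild types, with no overlap and a log2 fold change of 1.41 ± 0.44 (adjusted p = 0.26, edgeR). This was the largest early estimate among the 10 genes, and with the early libraries fitted alone it passed (1.37, adjusted p = 0.036, edgeR). In that fit Col6a2 was the only one of the 10 to pass, and Col5a1 did not. At the late stage it had 13.8, 22.9 and 18.6 CPM in mutants against 8.56, 6.26 and 30.1 in wild types, a log2 fold change of 0.30 (adjusted p = 0.68, edgeR).

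The late wild-type value of 30.1 CPM for Col6a2 was the highest of all 12 libraries and came from replicate 3. In the same library 6 corneal epithelial markers summed to 167 FPKM, against 8.0 and 12.2 FPKM in the other late wild types, and the keratin Krt15 alone had 121 FPKM. Early mutant replicate 2 had an equal epithelial sum of 167 FPKM and 27.3 CPM of Col6a2, and early mutant replicate 1 had a sum of 12.8 FPKM and 27.7 CPM. Without late wild-type replicate 3 the late log2 fold change of Col6a2 was 1.32 (adjusted p = 0.057, edgeR) and the averaged one 1.37 (adjusted p = 0.0018, edgeR), against 0.86 (adjusted p = 0.095) with it. Its early adjusted p became 0.033 (edgeR). The part of the epithelial markers in the result was not tested.

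Col6a1 had 15.7, 21.96 and 12.8 CPM in early mutants against 12.6, 11.6 and 13.2 in early wild types. In the late groups it had 22.5, 39.9 and 19.4 CPM in mutants against 6.33, 13.1 and 19.4 in wild types. The late groups were apart by only the gap between late mutant replicate 3 and late wild-type replicate 3, whose rounded values are equal. The late log2 fold change was 1.08 (adjusted p = 0.080, edgeR) and the averaged one 0.75 (adjusted p = 0.083). Without late wild-type replicate 3 the averaged value was 0.97 (adjusted p = 0.036, edgeR).

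Col6a3, the long chain that is the most abundant of the type VI genes per length, had 92.7, 142 and 122 CPM in early mutants against 202, 80.9 and 179 in early wild types. Late mutants had 93.8, 195 and 133 CPM and late wild types 139, 129 and 117. The groups overlapped at both stages, with an averaged log2 fold change of -0.12.

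Col12a1, the fibril-surface collagen, had 1109, 1219 and 1041 CPM in early mutants against 898, 833 and 993 in early wild types, with no overlap. Late, it had 589, 913 and 780 CPM in mutants against 1235, 1005 and 909 in wild types, overlapping by a single pair of libraries. The log2 fold change was 0.31 ± 0.24 early (adjusted p = 0.67, edgeR) and -0.47 ± 0.24 late (adjusted p = 0.21, edgeR). The difference between the stages was -0.77 ± 0.34, with an unadjusted p of 0.036 and an adjusted p of 0.40 (edgeR).

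**Figure D2:**
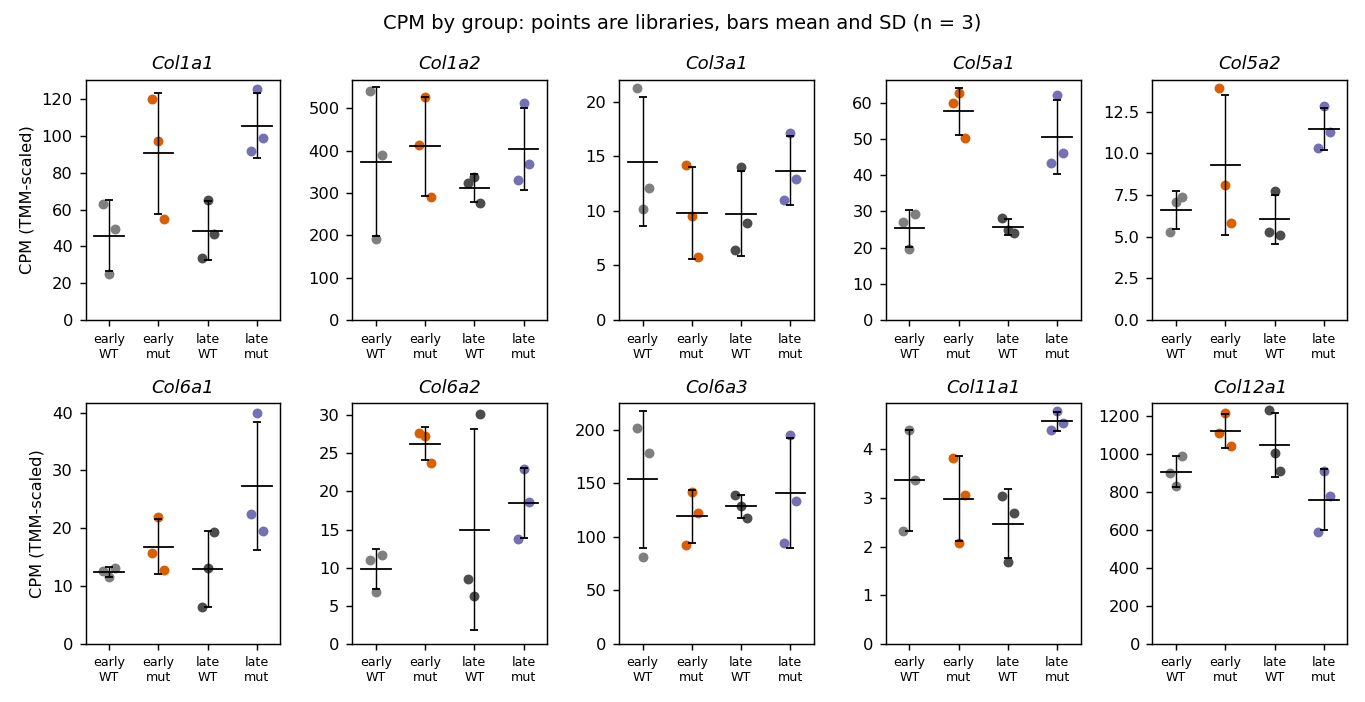
CPM of each of the 10 collagen genes by group (WT, wild type; mut, mutant), on linear axes from 0, with points for libraries and bars for the mean and SD of 3. Col5a1 is apart between genotypes at both stages, and the single high late wild-type point of Col6a2 is 30.1 CPM.

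Over the 10 genes, 3 had all early mutants above all early wild types (Col5a1, Col6a2 and Col12a1), where 10.1% of all tested genes did. In the late groups 5 did (Col1a1, Col5a1, Col5a2, Col6a1 and Col11a1), where 14.9% of all tested genes did. None of the 10 had all mutants below all wild types at either stage, as 11.8% of all tested genes did early and 10.9% late. The median log2 fold change of the 10 was 0.37 early, 0.69 late and 0.53 in the average, beside -0.11, 0.00 and -0.08 over all tested genes. At an unadjusted p under 0.05 (edgeR), 3 of the 10 differed early, 5 late and 5 in the average, where 8.77%, 28.1% and 24.3% of all tested genes did. The members were chosen with such results known, so these counts are a description.

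**Figure D3:**
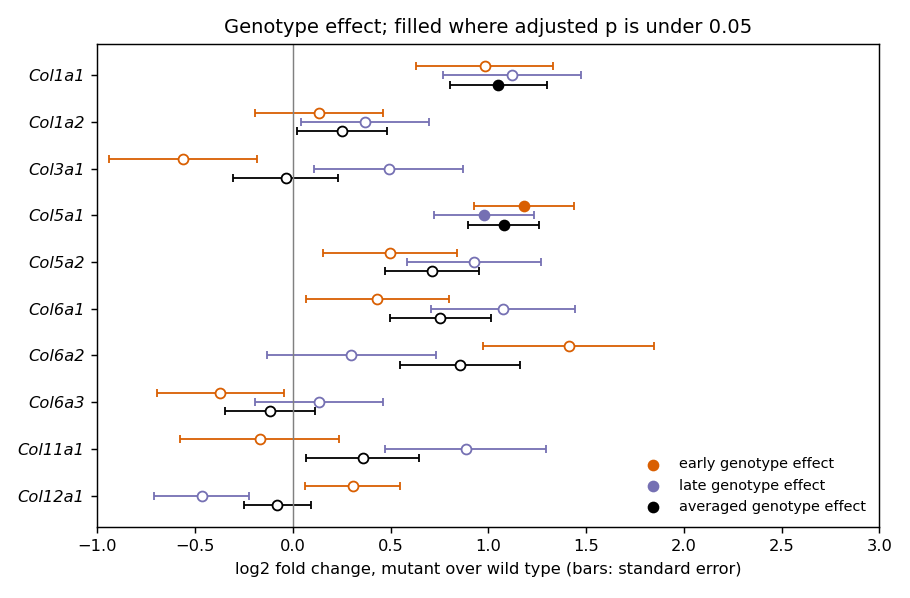
Log2 fold change of mutant over wild type with its standard error, for each gene at the early stage, at the late stage and averaged over both, with filled points where the adjusted p is under 0.05. Col5a1 is filled in all 3 comparisons, at 1.18, 0.98 and 1.08, and Col1a1 in the average alone, at 1.05.

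In the authors' deposited table for the early stage, Col5a1 had a log2 fold change of 1.14 (q = 0.00072) and Col6a2 one of 1.37 (q = 0.00041). In the authors' deposited table for the late stage, Col1a1 had 1.02 (q = 0.040) and Col5a1 0.90 (q = 0.040). Those tables called 1.87% of their genes early and 7.59% late at a q under 0.05. Col12a1 had -0.54 in the authors' deposited late table (q = 0.21).

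None of the 10 changed its genotype effect between the stages past the threshold in edgeR, DESeq2 or limma, and in edgeR 1, Col12a1, had an unadjusted p under 0.05, as had 11.2% of all tested genes. The differences of the effect ran from -1.11 for Col6a2 to 1.05 for Col3a1, and 0.00557% of all tested genes were called in edgeR, 1.82% in DESeq2 and 0.507% in limma. Without late wild-type replicate 3 the value for Col6a2 was -0.10. Between late and early mutants, no member passed in any of the 3 tools, log2 fold changes ran from -0.56 to 0.70, and 1 of the 10 had an unadjusted p under 0.05 (edgeR), as had 6.53% of all tested genes. Between late and early wild types no member passed either, the range was -0.57 to 0.60, and 0 of the 10 had such an unadjusted p, which 4.03% of all tested genes had. In edgeR 0% of all tested genes were called in each of those 2 comparisons, with 0.0724% and 0.00557% in DESeq2 and 1.66% and 0% in limma.

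The next comparison asked whether chains that share a molecule kept their proportions. Ratios of FPKM within a library do not depend on its depth. Per length, Col1a1 was scarcer than Col1a2 in all libraries. The ratio was 0.256, 0.162 and 0.166 in early mutants against 0.102, 0.116 and 0.112 in early wild types. Late, it was 0.246, 0.216 and 0.237 in mutants against 0.0912, 0.170 and 0.150 in wild types. The genotypes did not overlap at either stage. The mean log2 difference over both stages was 0.80, or 1.74-fold, and an exact two-sided permutation of genotype within stage gave p = 0.005, the smallest its 400 arrangements allow, and 0.02 after adjustment over 4 ratios. It held in all 14 alternatives, from 0.67 to 0.89. Of these, 12 each left out 1 library, and another added 1 FPKM to each value. The last did not scale by gene length, which cannot change a difference between log2 ratios of the same 2 genes. No offset for GC content was applied to the ratios. The GC content was 58.9% for Col1a1 and 55.7% for Col1a2. Both messages carry the paired arms at the start codon.

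The ratio of Col5a1 to Col5a2 differed by 0.40 on the log2 scale (exact permutation p = 0.16, adjusted 0.21). Its early mutants spanned 3.33 to 6.71 and its early wild types 2.15 to 3.99. Late mutants, at 3.19 to 3.76, lay within the late wild types at 2.49 to 4.15, with a log2 difference of 0.016. For Col6a3 to Col6a1 the ratio differed by -0.88 (exact permutation p = 0.03, adjusted 0.06), with medians of 2.37 against 4.97 early and 1.79 against 3.60 late. The adjusted p was 0.047 with 1 FPKM added to each value, 0.04 without early wild-type replicate 2 and 0.03 without late wild-type replicate 3.

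Col6a1 to Col6a2 was 0.813 to 1.21 in early mutants against 1.70 to 2.57 in early wild types, without overlap. Late mutants had 1.58 to 2.63 and late wild types 0.973 to 3.17. The mean difference was -0.26 (exact permutation p = 0.51, adjusted 0.51), and the difference between the stages was not tested for this ratio.

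**Figure D4:**
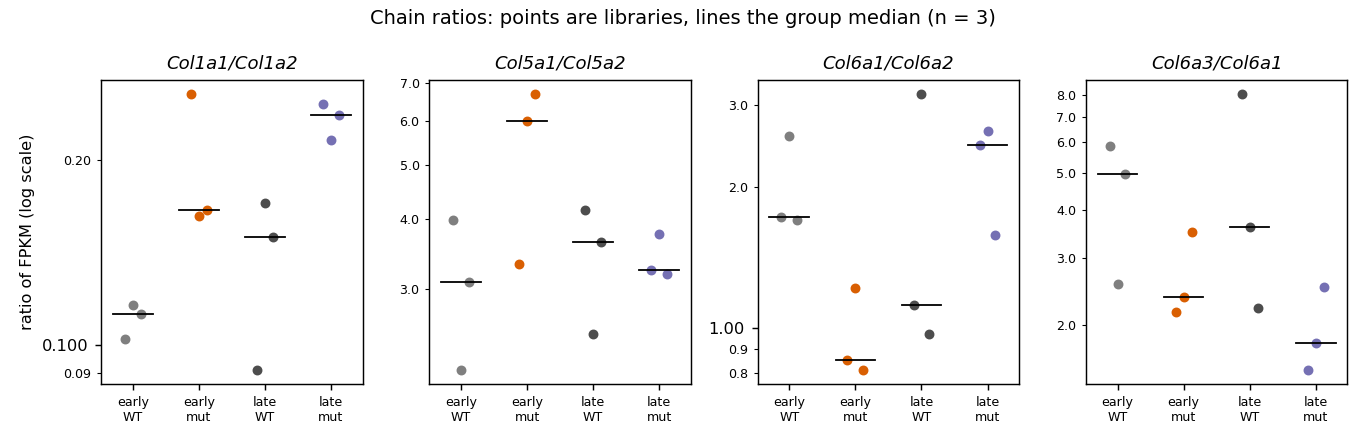
Ratios of FPKM between chains of 1 collagen type, on log axes, with 1 point per library and a line at the group median of 3. The lowest mutant Col1a1 to Col1a2 ratio is 0.162 early and 0.216 late, above the highest wild-type ratios of 0.116 and 0.170.

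How the genes varied together among replicates was described from log2 CPM after subtracting each group's mean, so that genotype and stage do not enter. Over 12 libraries, with 8 degrees of freedom left, the 45 pairs of genes had a median Pearson r of 0.24 and 36 of them were above 0. The highest was Col1a1 with Col3a1 at 0.92, and Col1a2 with Col5a1 reached 0.86. The lowest was Col1a2 with Col11a1 at -0.61. The points share libraries and depth scaling, so these values are descriptions.

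**Figure D5:**
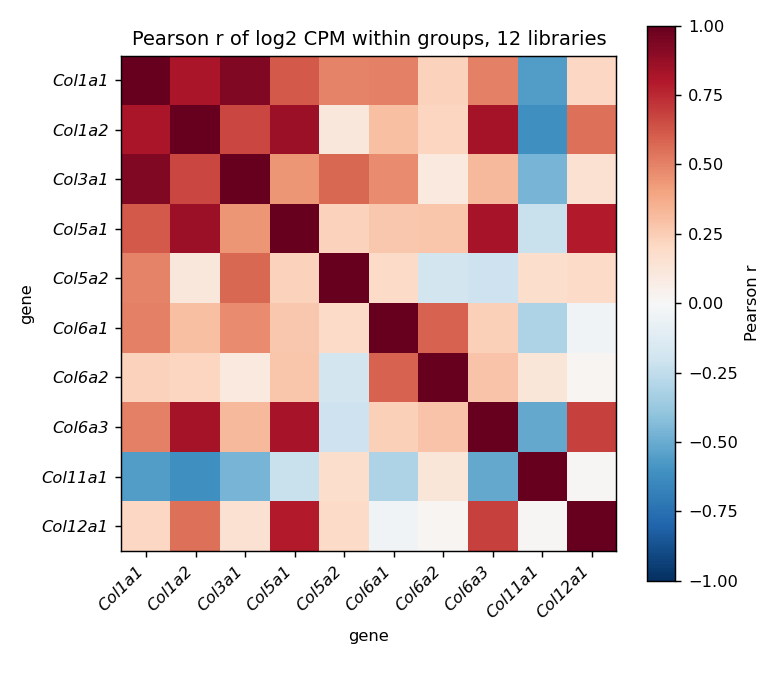
Pearson r between pairs of the 10 genes over 12 libraries, from log2 CPM with group means removed, on a colour scale from -1 to 1. Col1a1 and Col3a1 have 0.92, and Col11a1 is negative with both type I chains, down to -0.61.

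Of 5191 other genes with a mean of at least 5 FPKM, those whose within-group pattern was most like the mean of the 10 collagens were Rpsa at a Pearson r of 0.93, Rpl12 at 0.92, Rack1 at 0.90 and Ptgds at 0.89. Then came Capns1 at 0.88, Eef2 and Tpt1 at 0.87, Epas1 at 0.87 and Wwc1 and Stard10 at 0.84, all over the same 12 libraries. Rpsa, Rpl12 and Rack1 encode ribosomal proteins or a ribosome-bound protein, Eef2 is a translation elongation factor, and Ptgds is also on the keratocyte list.

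The start regions of Col1a2 and Col5a1, the pair with an r of 0.86 of which only Col5a1 differed between genotypes, are shown as the 250 bases before the RefSeq start on GRCm38.p6. Capitals mark CCAAT and GGGCGG on either strand. Col1a2 lies at chr6:4505368-4505617 on the plus strand, and Col5a1 at chr2:27886175-27886424 on the plus strand.
Col1a2: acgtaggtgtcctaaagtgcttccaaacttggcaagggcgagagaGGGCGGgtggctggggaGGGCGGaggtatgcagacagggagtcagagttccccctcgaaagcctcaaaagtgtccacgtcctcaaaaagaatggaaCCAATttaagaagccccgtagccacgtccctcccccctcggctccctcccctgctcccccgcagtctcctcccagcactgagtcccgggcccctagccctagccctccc
Col5a1: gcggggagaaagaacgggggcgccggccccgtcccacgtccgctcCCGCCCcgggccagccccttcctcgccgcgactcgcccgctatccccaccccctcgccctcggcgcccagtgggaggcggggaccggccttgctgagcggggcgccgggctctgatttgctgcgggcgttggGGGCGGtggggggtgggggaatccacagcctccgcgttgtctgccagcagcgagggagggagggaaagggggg

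Col1a2 held 1 CCAAT, 109 bases before the start, and 2 GGGCGG, at 205 and 188 bases. Col5a1 held 2 GGGCGG, at 205 and 73 bases, no CCAAT, and a GC content of 76.4%. Among 32851 promoter windows in the table, 33.8% held CCAAT and 32.7% GGGCGG on either strand, so neither is rare. The motifs were searched by letters alone and do not overlap each other. The table matched 7 of the 10 genes.

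The machinery that makes, links and clears collagen was then read from fixed gene lists. Of 22 genes for synthesis and folding, 6 were higher and 0 lower in the average of both stages, where 4.04% of all tested genes were called higher. They were Colgalt1, Colgalt2, Crtap, P4ha1, P4hb and Sec24d. Colgalt1, a transferase that puts galactose on hydroxylysine, was 1.70-fold higher (adjusted p = 0.015, edgeR). P4ha1 and P4hb, the subunits of the prolyl hydroxylase that steadies the helix, were 1.68-fold (adjusted p = 0.015) and 1.62-fold higher (adjusted p = 0.016). The list's median averaged log2 fold change was 0.57, beside -0.08 over all tested genes. At the single stages 0 of the 22 passed early and 0 late (edgeR), where 0.59% and 5.47% of all tested genes did. At an unadjusted p under 0.05 (edgeR) there were 8 early and 12 late, beside 8.77% and 28.1% of all tested genes.

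Larp6, the binding protein of the start-codon stem-loop, and Serpinh1, the collagen chaperone HSP47, were named after their values were seen. Larp6 had 8.94 ± 2.07 CPM (SD, n = 3) in early mutants against 6.58 ± 2.67 in wild types, and 8.94 ± 1.47 against 6.56 ± 1.71 late, with an averaged log2 fold change of 0.45 (adjusted p = 0.28, edgeR). Serpinh1 had 0.28 (adjusted p = 0.40, edgeR). Neither passed.

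Of 7 tested genes for trimming procollagen ends, 0 passed in any of the 3 comparisons (edgeR, with 2 at an unadjusted p under 0.05 in the average, where 24.3% of all tested genes were). The 4 with the smallest averaged p went in both directions. Adamts3 had an averaged log2 fold change of -0.81 (adjusted p = 0.12, edgeR) and Furin -0.41 (adjusted p = 0.36). Pcolce, an enhancer of C-propeptide removal, had 0.47 (adjusted p = 0.13) and Bmp1 0.31 (adjusted p = 0.39). Of 5 cross-linking oxidases, 2 were higher in the average, where 4.04% of all tested genes were called higher. They were Lox at 2.12-fold (adjusted p = 0.0076, edgeR) and Loxl3 at 1.78-fold (adjusted p = 0.049). Of 10 tested receptors, 2 were higher in the average, beside the same 4.04% of all tested genes. Itgb1 was 1.92-fold and Itga1 1.71-fold higher (adjusted p of 0.003 and 0.023, edgeR). These are the 2 subunits of a collagen-binding integrin.

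Among fibril-associated proteins, the small proteoglycans and glycoproteins bound to collagen fibrils, of 14 tested 4 were higher early, 6 late and 7 in the average, and 0 were lower in any. Over all tested genes, 0.557% were called higher early, 497 of 17965 late and 4.04% in the average. Dpt was 5.44-fold, Kera 5.24-fold, Lum 4.56-fold and Prelp 3.29-fold higher in the average (adjusted p of 3.55e-06 to 0.00086, edgeR). Kera and Lum, proteoglycans that space stromal fibrils, and Dpt are also keratocyte markers. Lum was at 73.7 to 171 FPKM in early mutants against 17.7 to 35.2 in wild types, and at 80.3 to 159 against 19.6 to 29.5 late. The keratocyte markers Thy1 and Pdgfra stayed below 1 FPKM in every library, and their early ranges overlapped. Late, Thy1 had 0.212 to 0.643 FPKM in mutants against 0 to 0.021 in wild types, and Pdgfra 0.308 to 0.552 against 0.023 to 0.149. Of the 8 keratocyte markers, 6 had all late mutants above all late wild types and 1 had them below. Of all tested genes 14.9% and 10.9% did. The sum of all 8 keratocyte markers, led by Ptgds and Ogn, was 584 to 840 FPKM in early mutants against 399 to 454 in wild types, and 472 to 517 against 532 to 697 late, the reverse order. The part of keratocytes in the higher Col5a1 and Col1a1 was not tested.

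Of 10 tested genes of collagen turnover, 1 was higher early, 5 late and 6 in the average. Higher calls over all tested genes were 0.557% early, 497 of 17965 late and 4.04% in the average. Timp1, an inhibitor of metalloproteinases, was 6.27-fold higher, Timp2 2.22-fold, and Mmp14, a membrane-bound collagenase, 1.99-fold (adjusted p of 1.05e-06 to 0.0032, edgeR). The collagenase Mmp13 had 0 CPM in all 6 wild-type libraries and 0.230 ± 0.146 CPM (SD, n = 3) in early and 1.13 ± 0.32 CPM in late mutants.

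Among 15 tested interstitial collagens outside the 10, the highest level was that of Col16a1, with a mean of 3.10 FPKM, and 0 were called at either stage (edgeR, with 1 early and 3 late at an unadjusted p under 0.05, where 8.77% and 28.1% of all tested genes were). All 15 had early log2 fold changes below 0, with a median of -1.196, and the late median was 0.05. Over all tested genes the medians were -0.11 early and 0.00 late, and 7735 of 17965 were above 0 early. With no low-count filter the early median over all genes was -0.56. These collagens were scarce: after Col16a1 and Col27a1 (1.24 FPKM) came Col9a3 at a mean of 0.44 FPKM, with the rest lower. In the average Col6a6 alone was lower (adjusted p = 0.043, edgeR), as were 505 of the 17965 tested genes. Its late mutants had 0 CPM and its late wild types 0.801 ± 0.704 CPM (SD, n = 3), so no fold is given.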

How the data were processed

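Strand-specific RNA-seq libraries were made from corneal endothelium, per the labels' protocols. Per the submitters' processing notes, the build was GRCm39 and the tools included fastp, HISAT2, HTSeq and DESeq2, without versions. The authors deposited raw counts per gene, FPKM per gene, and 2 tables of mutant against wild type, each with a log2 fold change, a p-value and a q-value per gene. The annotation release and strand setting of the counts are not stated there.

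The count table was tested with edgeR 4.0.16 in R 4.3.3: TMM scaling, filterByExpr on the 4 groups (14796 genes removed), a robust quasi-likelihood F test on all 12 libraries with 8 residual degrees of freedom, and Benjamini-Hochberg adjustment over 17965 genes. The common biological coefficient of variation was 0.464. Alternatives used DESeq2 1.42.0 and limma 3.58.1. Chain ratios came from the deposited FPKM values. The tests were checked on simulated data. Replicates differed by 48.1 to 236.8 times the chi-square expected from sampling noise, so none was a repeat deposit.

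All 10 collagens are named. From each pathway list up to 4 genes with the smallest averaged p were drawn. Those not named above are given here with their averaged log2 fold changes. They were Loxl2 (0.65), Loxl1 (0.19), Lair1 (3.06), Ddr2 (0.27), Col11a2 (-1.47), Col19a1 (-1.62) and Col27a1 (-0.48), none past the threshold in edgeR. Crtap and Sec24d are named as calls, and Col16a1 for its level. Each marker list is given by counts, summed level or leading genes. The members and lists were chosen with earlier results of these data known. GC content was known for 87.1% of tested genes. Lens and smooth muscle markers were also read. Lens sums were 931.5 to 1294 FPKM in early mutants against 1247 to 1665 in wild types, and 1215 to 1253 against 1167 to 1911 late (2 genes higher late, 1 lower in the average). Smooth muscle sums were 59.2 to 72.6 against 82.2 to 117 early, and 93.9 to 105 against 61.0 to 63.5 late (1 gene lower late and in the average). In either direction 5.47% of all tested genes were called late and 6.85% in the average.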

Additional observations from a re-analysis of the deposited data

How the results depend on the processing

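Of the 10 collagens, those past the threshold were 1 early, 1 late and 2 in the average. The early count was 2 with no low-count filter, 0 with the GC offset and 0 without a pair of wild types (early replicate 2, late replicate 1). It was 1 with the early libraries alone, Col6a2 in place of Col5a1, and 0 to 2 when each library was left out. The late count was 3 with no low-count filter, 2 with a filter of 5 CPM in 3 libraries, 2 with DESeq2, 0 with the GC offset, 0 with the late libraries alone, 2 without that pair, and 0 to 2 when each was left out. The averaged count was 4 with no filter, 1 with the GC offset, and 1 to 4 when each library was left out. With the replicate number as a block the counts were 0 early, 0 late and 2 in the average. After subtracting group means, same-numbered mutant and wild-type libraries correlated over genes at -0.0878 to 0.0813. Differently numbered ones correlated at -0.0534 to 0.0891. With 3 libraries per group these values cannot settle whether same-numbered libraries share more than a number. Of all tested genes 0.263% to 1.32% were called early, 1.19% to 23.8% late and 2.92% to 17.9% in the average across alternatives. The Col5a1 to Col5a2 ratio passed with 1 FPKM added (0.50, adjusted p = 0.03, exact permutation). Col5a2 itself was at 0.668 to 2.35 FPKM, so the added 1 FPKM damps its part in that ratio. Col6a3 to Col6a1 passed too (-0.71, and -1.09 to -0.63 when each library was left out). The Col6a1 to Col6a2 ratio ran from -0.42 to 0.0031 when each library was left out. Some effects near 0, none of them past the threshold, changed sign. Early, Col1a2 ran from -0.16 to 0.51 and Col11a1 from -0.37 to 0.086 when each library was left out, with -0.16 and 0.078 without that pair, and Col11a1 had 0.13 with the length offset. Late, Col6a2 ran from -0.068 to 1.32 and Col6a3 from -0.10 to 0.36 when each was left out, and Col6a3 had -0.029 with the GC offset. In the average, Col3a1 ran from -0.21 to 0.17, Col6a3 from -0.23 to 0.014 and Col12a1 from -0.12 to 0.071, with 0.027 for Col3a1 without a filter, 0.055 and 0.21 for Col6a3 and Col12a1 with the length offset, and 0.026 for Col12a1 without that pair. The change of effect between stages ran from -0.16 to 0.50 for Col1a1, -0.14 to 0.68 for Col1a2 and -0.34 to 0.13 for Col5a1 when 1 library or that pair was left out, with -0.00375 (limma), -0.10 (length offset) and -0.016 (GC offset) for Col1a1. Where no value above shows it, the cause was not tested. A depth of 42 counts in the scarcest library limits Col11a1.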
